A study of Mus musculus with 5 samples.

Results

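Trp63 encodes the transcription factor p63, and Itga6, Itgb4, Itga3, Itgb1, Lama3, Lamb3 and Dst encode receptors, ligand chains and a linker of basal keratinocyte adhesion. The 8 genes were taken by the gene symbol that the array platform gives each probe. They make up 8 of the 18467 genes with a symbol on the array and are read by 12 probes, all 12 of which were kept. Messenger RNA was measured in back skin of mice of the hairless albino strain on 5 one-colour CodeLink oligonucleotide arrays, 1 array per group. The skin came from Xpa mutants 3 h and 24 h after UVB at 1 kJ per square metre, and from WT mice at the same times after that dose. The fifth array held unirradiated WT skin. Skin of unirradiated Xpa mutants was not analysed here. Xpa encodes a protein of nucleotide excision repair that binds damaged DNA, and the sources used here give neither its allele nor whether an array held RNA of 1 mouse or of a pool. Since each group is 1 array, no value has a test or an error over replicates, and a difference is one between 2 arrays.

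In stratified epithelia p63 maintains the basal layer and acts on keratin and adhesion genes. Basal keratinocytes rest on the basement membrane through hemidesmosomes, in which integrin α6β4 binds a laminin outside the cell and is tied to keratin filaments inside it by plectin and BPAG1e, a product of Dst. Integrin α3β1 binds the same laminin in focal contacts, and that laminin includes the chains encoded by Lama3 and Lamb3.

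The sequence upstream of the start is shown for Dst and Lamb3, since these were the genes of the 8 that were past 2-fold on the Xpa mutant array at 24 h against unirradiated WT. Lamb3 was below background on that mutant array. Of the 8 genes 4 had a window. Trp63, past 2-fold on the Xpa mutant array at 3 h against unirradiated WT, was not among them. The windows are the 250 bases before an annotated start in RefSeq, build GRCm38.p6, plus strand, written 5′ to 3′. Capitals mark CATG, a frequent core of p53 family binding sites. CATG and TGANTCA, the letters of AP-1 sites, read the same on both strands, and the motifs do not overlap in these windows.
Dst, chr1:34011345-34011594: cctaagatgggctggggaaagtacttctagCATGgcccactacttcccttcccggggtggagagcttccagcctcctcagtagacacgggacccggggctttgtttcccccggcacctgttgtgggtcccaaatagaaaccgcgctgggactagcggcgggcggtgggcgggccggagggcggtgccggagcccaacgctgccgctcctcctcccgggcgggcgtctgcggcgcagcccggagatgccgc
Dst, chr1:34160010-34160259: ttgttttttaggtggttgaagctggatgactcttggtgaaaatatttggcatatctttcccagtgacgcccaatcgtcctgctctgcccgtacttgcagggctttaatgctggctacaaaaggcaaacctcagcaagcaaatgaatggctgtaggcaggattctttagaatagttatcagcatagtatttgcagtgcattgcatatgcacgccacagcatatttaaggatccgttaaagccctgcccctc
Lamb3, chr1:193301744-193301993: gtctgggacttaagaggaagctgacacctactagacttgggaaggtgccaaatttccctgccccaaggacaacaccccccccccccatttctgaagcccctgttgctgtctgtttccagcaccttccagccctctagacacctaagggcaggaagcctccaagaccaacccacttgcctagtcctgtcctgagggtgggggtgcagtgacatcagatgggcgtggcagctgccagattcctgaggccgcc
Lamb3, chr1:193301993-193302242: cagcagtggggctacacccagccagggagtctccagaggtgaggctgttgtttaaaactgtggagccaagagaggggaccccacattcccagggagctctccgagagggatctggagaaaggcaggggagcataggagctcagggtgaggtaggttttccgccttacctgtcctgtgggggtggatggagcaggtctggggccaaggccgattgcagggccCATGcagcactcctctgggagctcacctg
CATG occurred once in the first Dst window and once in the second Lamb3 window, and not in the other windows shown. Over 32851 windows of the same length, 53.9% held CATG and 6.75% held TGANTCA, which was in none of the 4 windows shown. The GC content was 68.8% and 45.2% in the Dst windows and 58.8% and 61.2% in the Lamb3 windows, beside a median of 52.4% over all windows. A match of letters is a description and not a bound site.

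Trp63 read lowest on the Xpa mutant array at 3 h and highest on the unirradiated WT array. Its log2 level (log2 of normalized intensity) was 8.09 and 8.73 in Xpa mutant skin at 3 h and 24 h, against 9.34, 8.90 and 9.04 in WT skin without UVB, at 3 h and at 24 h. The scanner's own spot means held the same order before any correction, with 304 and 456 in Xpa mutant skin at 3 h and 24 h, against 675, 526 and 585 in WT skin without UVB, at 3 h and at 24 h. Both mutant arrays lay below all 3 WT arrays. The Trp63 spot on the unirradiated WT array carried the scanner's quality flag C, and its other spots the flag G. The Trp63 range of 1.25 over the 5 arrays was matched or passed by 212 of the 4644 genes above background on all 5 (4.6%), whose median range was 0.45. A second Trp63 probe was below background on 4 arrays and read above it on the WT array at 24 h (7.35), so it gave no second reading of this order. As an average of both probes, the difference of the mutant at 3 h against WT at 3 h was -0.32, in place of -0.82.

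**Figure D1:**
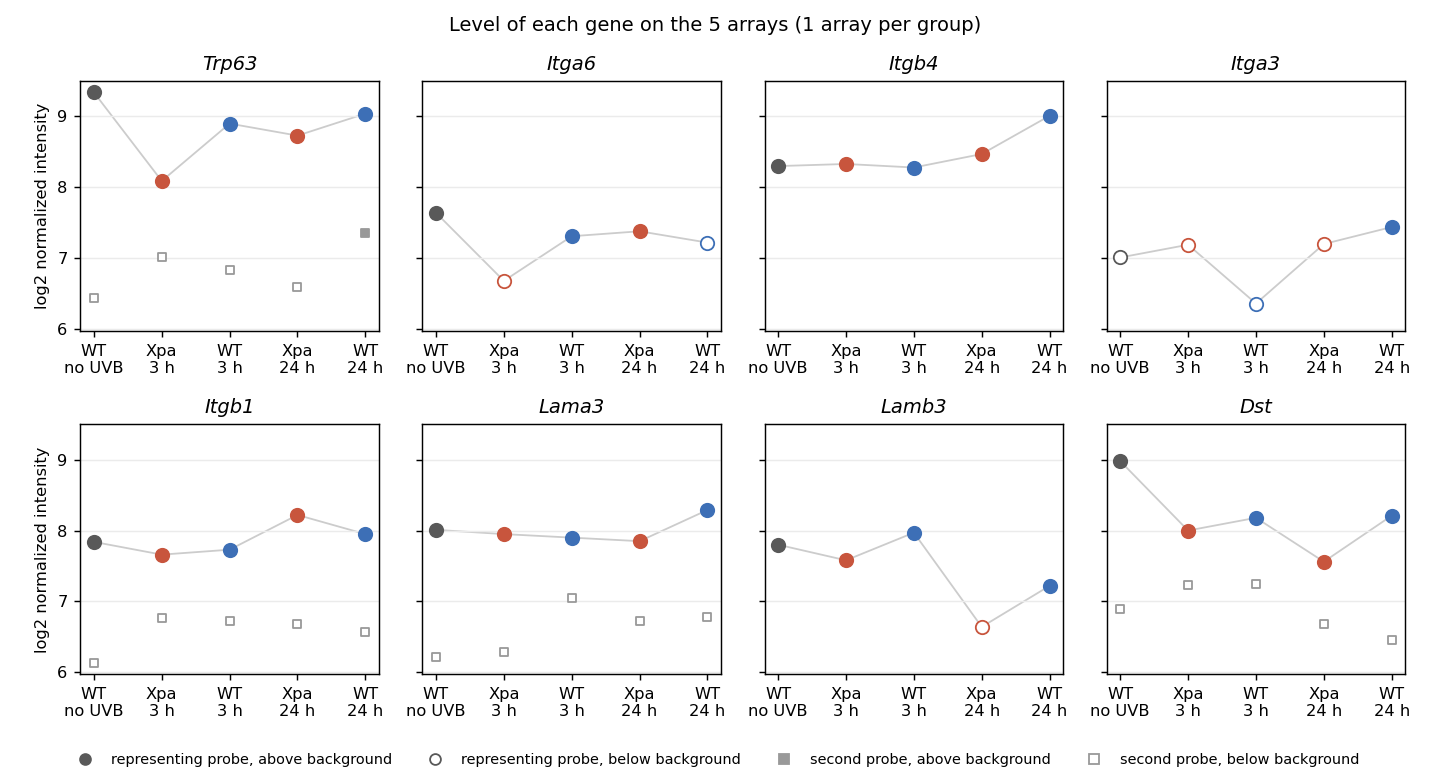
Log2 normalized intensity of each of the 8 genes (y axis) on the 5 arrays (x axis, unirradiated WT at the left and each Xpa mutant array left of the WT array of its time). Large circles are the probe that represents the gene and small squares a second probe, filled where the scanner flag put the spot above background and open where it put it below. Trp63 runs between 8.09 and 9.34 and Dst between 7.56 and 8.98, both highest without UVB.

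The integrin α6 chain was read near background. Itga6 had a log2 level of 6.68 and 7.38 in Xpa mutant skin at 3 h and 24 h, against 7.64, 7.31 and 7.22 in WT skin without UVB, at 3 h and at 24 h. The values of 6.68 and 7.22 were below background. Like Trp63, it was highest without UVB and lowest on the mutant array at 3 h.

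Its partner chain Itgb4 was highest on the WT array at 24 h. The log2 level was 8.33 and 8.47 in Xpa mutant skin at 3 h and 24 h, against 8.30, 8.28 and 9.01 in WT skin without UVB, at 3 h and at 24 h. The other 4 arrays lay between 8.28 and 8.47, and the WT array at 24 h stood above them.

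Itga3, the α3 chain, was above background on 1 array alone. Its log2 level was 7.19 and 7.20 in Xpa mutant skin at 3 h and 24 h, against 7.01, 6.36 and 7.44 in WT skin without UVB, at 3 h and at 24 h, and only the last value was above background. Itgb1, the β1 chain that many cell types share, was above background on all 5. It had 7.66 and 8.22 in Xpa mutant skin at 3 h and 24 h, against 7.84, 7.73 and 7.95 in WT skin without UVB, at 3 h and at 24 h. Its range of 0.55 was matched or passed by 35.3% of genes, and both extremes were mutant arrays.

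Of these chains of the hemidesmosomal laminin, Lama3 varied little and Lamb3 more. Lama3, the α3 chain of the laminin, had 7.95 and 7.85 in Xpa mutant skin at 3 h and 24 h, against 8.01, 7.90 and 8.29 in WT skin without UVB, at 3 h and at 24 h. This range of 0.43 was matched or passed by 53.4% of genes. Lamb3, the β3 chain, had 7.58 and 6.64 in Xpa mutant skin at 3 h and 24 h, against 7.80, 7.97 and 7.22 in WT skin without UVB, at 3 h and at 24 h. The value of 6.64 was below background, and at both times the mutant array was below the WT array.

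Dst was highest on the unirradiated WT array and lower on all 4 irradiated ones. Its log2 level was 8.0 and 7.56 in Xpa mutant skin at 3 h and 24 h, against 8.98, 8.18 and 8.21 in WT skin without UVB, at 3 h and at 24 h. The spot means were 297 and 220 in Xpa mutant skin at 3 h and 24 h, against 552, 334 and 338 in WT skin without UVB, at 3 h and at 24 h. Dst was lower than without UVB on each irradiated array in 9 of 9 alternatives. Those that change only the filter on dim probes cannot alter the Dst difference, and the others rework the same spots. The range of 1.41 was matched or passed by 143 of 4644 genes (3.1%). Dst also makes forms known from neurons and muscle, and the files do not say which form either of its probes reads. The second Dst probe, like the second probes of Itgb1 and Lama3, was below background on all 5 arrays.

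Facts of the whole set bear on all these values. Per array, 23.5% to 25.1% of gene probes were above background, and the median local background was 92 to 94 intensity units. Xpa itself read 6.64 and 6.42 in Xpa mutant skin at 3 h and 24 h, both below background, against 7.49, 7.13 and 7.55 in WT skin without UVB, at 3 h (below background) and at 24 h. The sources used here do not place its probe relative to the mutation, so this checks the labels weakly. The basal keratinocyte markers Krt5 and Krt14 were above background on all 5 arrays. The summed intensity of 6 basal keratinocyte markers with a probe was 17130 and 13644 in Xpa mutant skin at 3 h and 24 h, against 21192, 15630 and 20926 in WT skin without UVB, at 3 h and at 24 h. In whole skin, fewer cells of a type and less RNA per cell cannot be told apart.

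The first comparison was WT skin 3 h after UVB against unirradiated WT skin. Genes above background on 1 or both arrays of a pair were compared, and a gene was called at 2-fold, a log2 difference of at least 1. Of the 7 genes compared, 0 were called higher and 0 lower, beside 2.27% higher and 1.26% lower among all 7148 genes. Dst had the most negative difference of the 7 at -0.80 (1.74-fold), at rank 195 from the lowest of 7148. Averaged over both Dst probes it was -0.22. Trp63 differed by -0.44 (1.35-fold), which 21.7% of genes matched or passed in size, and by -0.02 as an average of both probes. Itga6 differed by -0.33, and Itgb4, Itgb1, Lama3 and Lamb3 lay between -0.11 and 0.17. The median over the 7 was -0.11, beside -0.03 over all genes. Itga3 was below background on both arrays here, as in every comparison of 7 genes below.

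In WT skin at 24 h against unirradiated WT skin, the receptor and ligand chains gave differences of both signs. Of 8 compared, 0 were called higher and 0 lower, beside 2.45% higher and 2.22% lower of 7268 genes. Itgb4 was 1.63-fold above (0.71) and Dst 1.7-fold below (-0.77, rank 346 from the lowest). Lamb3 differed by -0.58 and Lama3 by 0.28. Trp63 differed by -0.30 with its bright probe, and by 0.30 as an average of both. Itga6 was at least 1.33-fold lower and Itga3 at least 1.34-fold higher, a bound because 1 array of each pair was below background. The median was -0.09.

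Between 3 h and 24 h in WT skin, 1 of 8 was called higher, Itga3, and 0 lower, beside 2.09% higher and 2.22% lower of 7120 genes. The Itga3 log2 difference was 1.08, but its array at 3 h was below background and the measured bound was at least 1.29-fold. The difference was 0.73 without background correction, 1.53 with an offset of 16, 1.96 with plain subtraction and 1.97 in the authors' deposited table. Itgb4 differed by 0.73 (1.66-fold) and Lama3 by 0.38 (1.31-fold), both higher at 24 h, while Lamb3 was 1.68-fold lower at 24 h (-0.75). Trp63 (0.14) and Dst (0.03) lay near 0, and the median was 0.18.

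In Xpa mutant skin the same interval gave another set of values. Of 7 compared, 0 were called higher and 0 lower at 24 h against 3 h, beside 2.44% higher and 3.77% lower of 7090 genes. Trp63 was 1.56-fold higher at 24 h (0.64, and 0.12 as an average of both probes), Itgb1 1.47-fold higher (0.55) and Itga6 at least 1.2-fold higher (0.70). Lamb3 was at least 1.44-fold lower (-0.94) and Dst 1.35-fold lower (-0.43). Itgb4 (0.14) and Lama3 (-0.10) lay near 0, and the median was 0.14.

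The Xpa mutant array at 3 h against the WT array at 3 h set the genotypes side by side early after UVB. Of 7 compared, 0 were called higher and 0 lower, beside 1.12% higher and 0.991% lower of 6863 genes. Trp63 was 1.76-fold lower (-0.82), at rank 133 from the lowest. Itga6, below background on the mutant array, was at least 1.14-fold lower. Its log2 difference of -0.63 was -1.06 with plain subtraction and in the authors' deposited table, so these values set no order between Itga6 and Trp63. Lamb3 was 1.31-fold lower (-0.39). Dst differed by -0.18, Itgb1 by -0.07, and Itgb4 and Lama3 by 0.05 each. The median was -0.18, beside 0.01 over all genes. The summed basal keratinocyte markers, a sum carried mainly by Krt5 and Krt14, were 17130 on the mutant array and 15630 on the WT array. Of 5 such markers compared, 3 were higher and 2 lower on the mutant array, with a median of 0.13. Krt5 differed by 0.13 and Krt14 by 0.24, and Col17a1 by -0.24. The part of basal cell content in the Trp63 difference was not tested.

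Hair follicle genes moved with this pair. Their summed intensity over the 7 of 10 that were above background on any array was 5485 on the Xpa mutant array and 2069 on the WT array at 3 h. Shh, Lhx2 and Trps1 were below background on all 5 arrays. The part of hair follicle content in the Trp63 difference was not tested.

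At 24 h, Xpa mutant against WT, 0 of 8 were called higher and 0 lower, beside 1.6% higher and 2.66% lower of 7104 genes. Of the 8 differences 6 were negative, and the median of -0.37 compares with 0.00 over all genes. Dst differed by -0.64 (1.56-fold, and -0.21 as an average of both probes), Lamb3 by -0.59 (at least 1.12-fold), Itgb4 by -0.54 (1.46-fold) and Lama3 by -0.43 (1.35-fold). Trp63 differed by -0.31 (1.24-fold) and Itga3 by -0.24 (at least 1.18-fold). Itgb1 (0.26) and Itga6 (0.15) were the positive values, and both turned negative, to -0.35 and -0.43, when arrays were scaled to the spiked bacterial controls. That scaling shifted the median of all genes by -0.63 and put 4 of the 8 past 2-fold lower. On these arrays the basal markers, mainly Krt5 and Krt14, summed to 13644 in the mutant and 20926 in WT, and the suprabasal markers to 13453 in the mutant and 17411 in WT. Of 6 basal markers compared, 4 were lower and 2 higher on the mutant array, with a median of -0.26. Of 8 suprabasal markers compared, 6 were lower, with 3 called, and 2 higher, with a median of -0.40. The part of basal cell content in these differences was not tested.

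**Figure D2:**
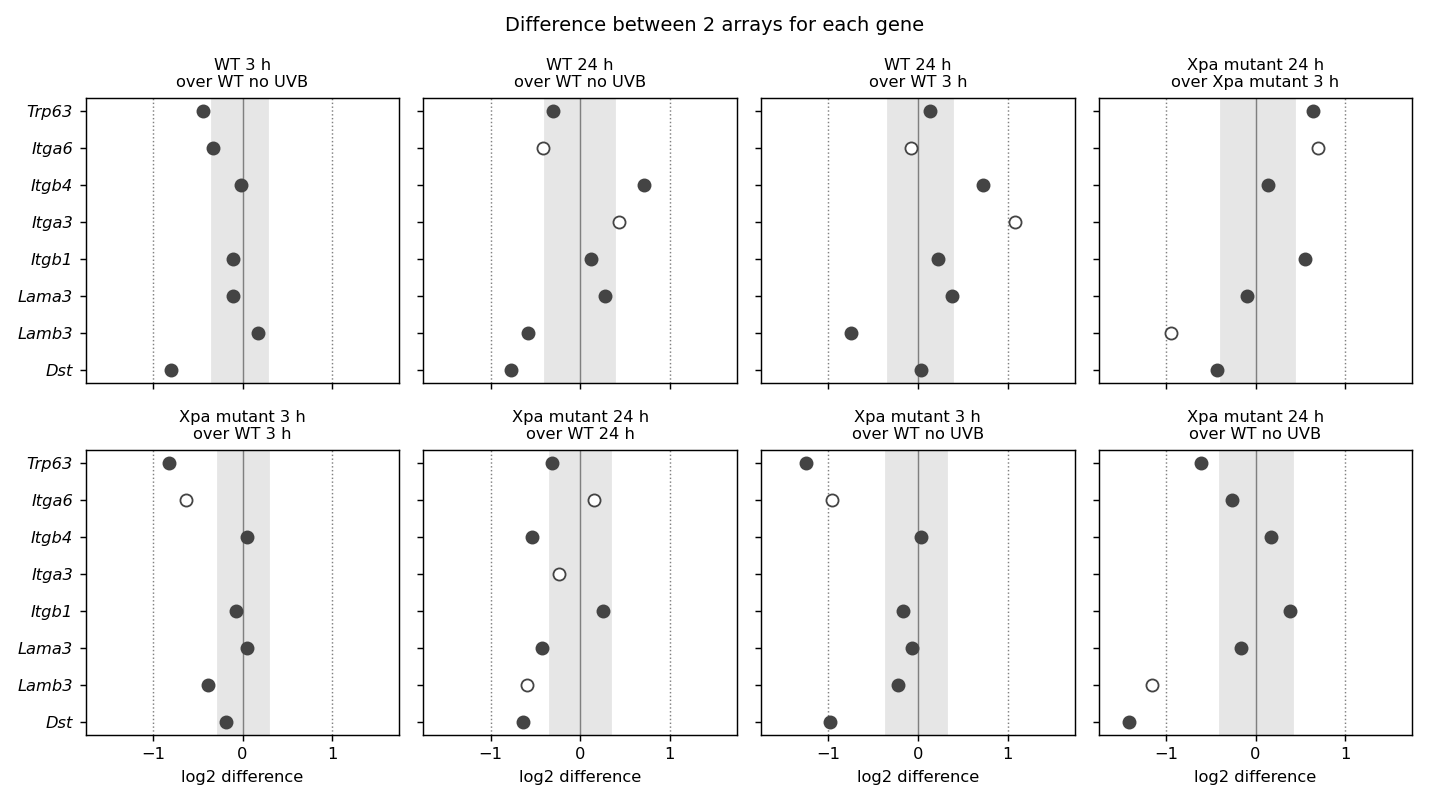
Log2 difference (x axis) of each gene (y axis) in 8 comparisons of 2 arrays, the group named first minus the one named second. Filled circles are genes above background on both arrays and open circles on 1 of them, the dotted lines mark 2-fold, and the grey band is the median of all compared genes plus and minus their robust SD. Trp63 lies at -1.25 for the Xpa mutant at 3 h over unirradiated WT and Dst at -1.41 for the Xpa mutant at 24 h over it.

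Each mutant array was also set against unirradiated WT skin, in which genotype and UVB differ together and cannot be told apart. For the Xpa mutant at 3 h, 0 of 7 were called higher and 1 lower, beside 1.76% higher and 1.32% lower of 7110 genes. The gene called was Trp63, 2.38-fold lower (-1.25) at rank 33 from the lowest, and as an average of both probes -0.34. Dst was 1.97-fold lower (-0.98) and Itga6 at least 1.44-fold lower (-0.96), both short of the call. As an average of both probes Dst differed by -0.32. With plain subtraction Dst was at -1.15 and Itga6 at -1.52, and each of the 2 was past 2-fold in 4 alternatives. Itgb4, Itgb1, Lama3 and Lamb3 lay between -0.22 and 0.03. The median was -0.22.

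For the Xpa mutant at 24 h, 0 of 7 were called higher and 2 lower, beside 3.28% higher and 3.88% lower of 7296 genes. Dst was 2.67-fold lower (-1.41, rank 106 from the lowest) and differed by -0.81 as an average of both probes. Lamb3 was at least 1.68-fold lower, with a log2 difference of -1.16 that was -0.96 without background correction. Trp63 was 1.52-fold lower (-0.61). Itgb1 was 1.30-fold higher (0.38), and -0.03 with the spiked-control scaling. Itga6 (-0.26), Lama3 (-0.16) and Itgb4 (0.17) were closer to 0, and the median was -0.26. Dst is also made in muscle and neurons, so markers of muscle and of Schwann cells, which sheathe nerves, are given here. Skeletal muscle markers, 10 of 10 above background on every array, summed to 42027 on the mutant array at 24 h and 69015 on the unirradiated WT array. Schwann cell markers summed to 1697 on that mutant array and 2386 on the unirradiated WT array, with S100b and Ngfr below background on all 5 arrays. In the mutant at 3 h, where Dst was also lower than in unirradiated WT, the muscle sum was 72501 and the Schwann sum 1992. In WT at 3 h, with a Dst difference of -0.80, the muscle sum was 59806 and the Schwann sum 1780. In WT at 24 h, with a Dst difference of -0.77, the muscle sum was 40732 and the Schwann sum 1429. The Schwann sum, like Dst, was highest on the unirradiated WT array, and the muscle sum was highest on the mutant array at 3 h. The part of muscle or nerve content in the Dst differences was not tested.

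Direct partners of the 8 genes were read from a list of 4. None of the 4 was called in any of the 8 comparisons, in which 0.991% to 3.88% of all genes were called per direction. Col17a1, the hemidesmosomal collagen, had 8.45 and 8.13 in Xpa mutant skin at 3 h and 24 h, against 8.78, 8.68 and 8.57 in WT skin without UVB, at 3 h and at 24 h. Like Dst, Col17a1 was highest without UVB and lowest on the mutant array at 24 h. The cytoplasmic linker Plec lay between 8.27 and 8.47 on all 5, and the tetraspanin Cd151, a partner of laminin-binding integrins, between 7.29 and 7.72. Col7a1, the anchoring fibril collagen, was above background on 2 arrays.

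**Figure D3:**
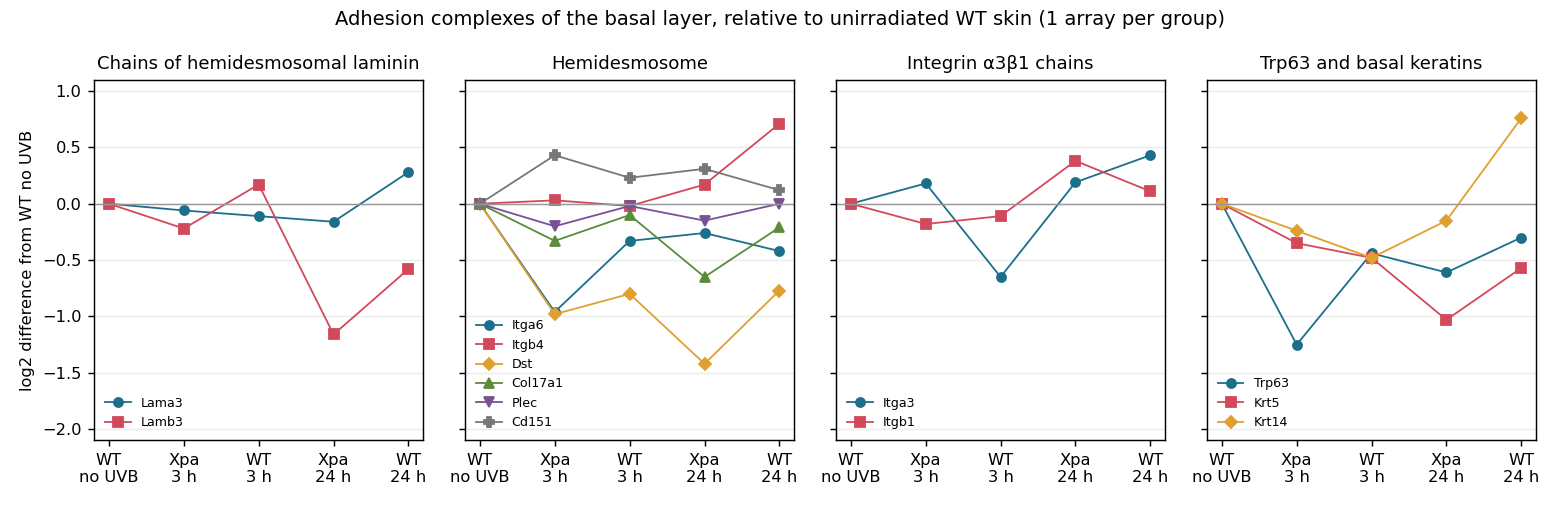
Log2 level minus the level on the unirradiated WT array (y axis) on the 5 arrays (x axis), for 2 chains of the hemidesmosomal laminin, the hemidesmosome, integrin α3β1, and Trp63 with the basal keratins. Points are single arrays and some are below background (Itga3 on 4 arrays, Itga6 on 2, Lamb3 on 1). Lamb3 (-1.16) and Dst (-1.41) lie farthest below their baseline in the Xpa mutant at 24 h.

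The basement membrane list, which holds other laminin chains, collagens, nidogens, proteoglycans and Fras1-type proteins, gave 0 calls in each direction in all 8 comparisons, with 7 to 9 of 23 compared. With 0.991% to 3.88% of all genes called per direction, 0 calls do not set this list apart. The median of its genes in the Xpa mutant at 24 h against WT at 24 h was 0.42, beside -0.37 for the 8 genes. Fibroblast markers, of which 9 of 9 were above background on all 5 arrays, moved with it and summed to 23783 on the mutant array and 12940 on the WT array at 24 h. Their part in it was not tested. Of 14 other integrin chains, Itgb5, which pairs with αv, was at least 2.08-fold lower in WT at 3 h and at least 2.07-fold lower in WT at 24 h than in unirradiated WT skin. Itga11, a collagen receptor chain, was at least 1.34-fold lower on the Xpa mutant array at 24 h than at 3 h. These 3 calls were 1 of 4, 1 of 3 and 1 of 6 chains compared, beside 1.26%, 2.22% and 3.77% of all genes called lower. Only 6 of the 14 chains were above background on any array and could be called. No other chain of that list was called in any comparison.

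Among 21 integrin adaptors with a probe, calls came in 2 comparisons. In WT at 24 h against WT at 3 h, 2 of 15 compared were called higher, Parva (at least 1.29-fold) and the focal adhesion kinase Ptk2 (at least 1.34-fold), and 1 lower, the kindlin Fermt1 (at least 1.18-fold). Among all genes in that comparison, 2.09% were called higher and 2.22% lower. In the Xpa mutant at 24 h against WT at 24 h, 1 of 15 was called lower, paxillin (Pxn, at least 1.24-fold), beside 2.66% of all genes. Each of these 4 adaptors was below background on the dimmer array.

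Of 18 genes known as targets of p63, 17 had a probe. In WT at 3 h, 2 of 15 were called higher than without UVB, Sfn, a 14-3-3 protein (2.21-fold), and Cdkn1a, which inhibits the cell cycle (2.07-fold), and 0 lower. Both are also p53 targets. The share of all genes called there was 2.27% higher and 1.26% lower. In WT at 24 h the same 2 genes were called, Sfn 2.47-fold and Cdkn1a 2.10-fold higher, beside 2.45% of all genes higher. In the Xpa mutant at 24 h against unirradiated WT, 1 of 14 was called higher, Cdkn1a (2.49-fold), and 1 lower, the basal keratin Krt5 (2.04-fold). Among all genes there, 3.28% were called higher and 3.88% lower. In the Xpa mutant at 3 h against unirradiated WT, 1 of 13 was called, the epidermal regulator Zfp750, 2.15-fold lower, beside 1.32% of all genes lower. Between genotypes at the same time, 0 of 14 were called in either direction at 3 h, with a median of -0.22, and 0 of 14 at 24 h, with a median of -0.27. All genes gave 1.12% higher and 0.991% lower at 3 h, and 1.6% higher and 2.66% lower at 24 h. In WT at 24 h against WT at 3 h, 1 of 15 was called higher, Krt14 (2.35-fold), and 1 lower, Fermt1 as above. The shares of all genes were 2.09% and 2.22%. In the mutant over that interval 1 of 14 was called lower, the receptor kinase Fgfr3 (at least 1.28-fold), beside 3.77% of all genes.

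The basal keratins, from the same layer, followed other orders than Trp63. Krt5 had 13.34 and 12.66 in Xpa mutant skin at 3 h and 24 h, against 13.69, 13.21 and 13.12 in WT skin without UVB, at 3 h and at 24 h. Krt14 had 12.37 and 12.46 in Xpa mutant skin at 3 h and 24 h, against 12.61, 12.13 and 13.37 in WT skin without UVB, at 3 h and at 24 h. Of 4 keratins of activated epidermis, 4 were called higher in WT at 24 h than without UVB, and 4 were called lower in the mutant than in WT at 24 h. Beside them, 2.45% of all genes were higher in the first comparison and 2.66% lower in the second. Krt6a, for example, was 26.7-fold higher in WT at 24 h than without UVB and 2.21-fold lower in the mutant at 24 h than in WT at 24 h.

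The genes whose levels followed Trp63 most nearly over the 5 arrays were named by the root mean square difference of log2 levels, each centred on the gene's own mean, among the 4643 other genes above background on all 5. The smallest were Zfp750 (0.089), Il11ra1 (0.119), Nipbl (0.145), Iffo2 (0.154) and Atp10d (0.185), beside a median of 0.45. Zfp750 had 8.43 and 8.83 in Xpa mutant skin at 3 h and 24 h, against 9.54, 9.01 and 9.24 in WT skin without UVB, at 3 h and at 24 h. Its order over the arrays was that of Trp63. Il11ra1, an interleukin receptor chain, had 9.48 and 10.16 in Xpa mutant skin at 3 h and 24 h, against 10.59, 10.41 and 10.65 in WT skin without UVB, at 3 h and at 24 h. Of the 4 adhesion genes above background on all 5 arrays, none was among the 5 nearest. Dst was at 0.37 (rank 781), Lama3 at 0.39 (rank 1051), Itgb1 at 0.41 (rank 1363) and Itgb4 at 0.45 (rank 2237). The other 3 were not ranked, since some of their values were below background. Computed on all 5 values, Itga6 was at 0.174, with 2 arrays below background, Lamb3 at 0.582, with 1, and Itga3 at 0.593, with 4. The Itga6 value is smaller than that of Atp10d. Col17a1 was at 0.35 (rank 523), Krt5 at 0.46 (rank 2444) and Krt14 at 0.47 (rank 2754). These are descriptions over 5 arrays that share 1 normalization.

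**Figure D4:**
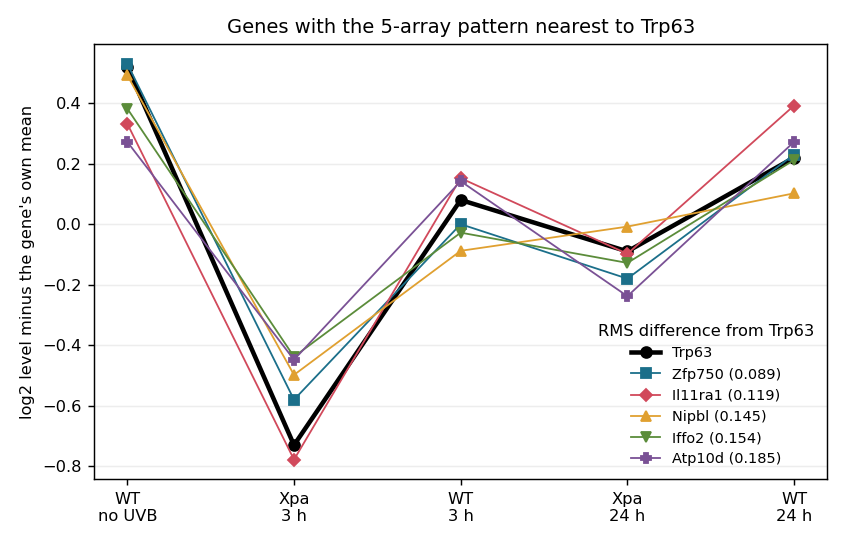
Log2 level minus the gene's own mean over the 5 arrays (y axis) on each array (x axis) for Trp63 and the 5 genes nearest to it by root mean square difference, which is printed in the legend. All 6 genes are lowest on the Xpa mutant array at 3 h, and Zfp750 (0.089) lies nearest.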

How the data were processed

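Back skin RNA of 5 groups was measured on 5 one-colour arrays, 1 per group, so the number of arrays limits the precision. Per the file headers, the deposited scanner tables hold spot and background intensity quantified with CodeLink Expression Analysis 5.0.0.31312. The authors' raw intensity was within 0.01 of spot mean minus background median in 180603 of 180603 unmasked spots. The authors also deposited a normalized intensity table, whose values equalled the series matrix in 181135 of 181135 cells and whose columns each had a median of 46.26. The sources used here do not name the software behind it.

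With limma 3.58.1 (R 4.3.3), normexp background correction was fitted by saddle point on all unmasked spots, with an offset of 50. Of 34967 gene probes, 126 masked and 98 flagged I or P on any array were dropped, as were 1260 control spots. Spots with the scanner's C flag were kept. The highest spots of Trp63, Itga6, Itgb4 and Lamb3 carried that flag, as did the lowest spot of Itgb1. The 34743 kept probes were quantile normalized and taken to log2. The platform annotation named 21471 of them with 1 symbol and 678 with several, from which no gene was named. RefSeq accessions in the GRCm38.p6 table named 533 more, and 12061 stayed unnamed. A gene was read by its brightest probe, and a probe was above background without the scanner's L flag. A fold against an array below background is a bound. It sets the brighter value against the dim reading or that array's lowest detected named gene, whichever is higher. Counts use the log2 difference itself. The robust SD of all differences of a comparison, 0.28 to 0.41, is the spread of genes, not of replicates. Spiked controls (24 probes with 10 spots each) had a median SD of 0.13 between spots of an array. Between arrays it was 0.05 with the array shift removed and 0.24 with the shift kept. The 2-fold call was tested on simulated log2 levels with known changes, with every gene set as above background. The planted changes were well past 2-fold and the noise was below the spread of the real differences. That test therefore checks the arithmetic of the call, not how well a change near 2-fold is called. Background correction and normalization were not part of that test.

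All 8 genes were named in each comparison, as were Col17a1, Krt5 and Krt14, up to 4 genes past 2-fold per list and the 5 genes nearest to Trp63. The genes and lists were chosen with earlier results of these data known. No test or p-value was possible. 9 alternatives were tried. Python 3.11.15, numpy 2.4.6, pandas 2.3.3 and matplotlib 3.10.9 were used. Some genes of the lists are not reported here.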

Additional observations from a re-analysis of the deposited data

Results flagged for a closer look

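Some differences between the genotypes went opposite ways at the 2 times. For Itgb4, Xpa mutant minus WT was -0.54 at 24 h and 0.05 at 3 h, so the later difference minus the earlier one was -0.59. For Lama3 it was -0.43 at 24 h and 0.05 at 3 h, apart by -0.48. For Itgb1 it was 0.26 at 24 h and -0.07 at 3 h, apart by 0.33. Between 3 h and 24 h, Lama3 moved by -0.10 in the mutant and 0.38 in WT, and Dst by -0.43 in the mutant and 0.03 in WT, apart by -0.48 and -0.46. The robust SD of this quantity over 4782 genes was 0.41. These differences rest on single arrays and were not tested. With the spiked-control scaling the early values of Itgb4 and Lama3 were -0.17 and -0.16, and the late value of Itgb1 was -0.35. As a mean over both probes, Lama3 was at -0.25 at 24 h and -0.36 at 3 h for mutant minus WT, and its later minus earlier value was 0.17 in the mutant and 0.06 in WT. For Dst these were -0.49 in the mutant and -0.38 in WT. With that choice, neither gene went opposite ways.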

How the results depend on the processing

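Over 9 alternatives, 119 of 144 counts, 71 of 72 medians and 481 of 519 differences of single genes stayed close to the reported value, and 0 called values changed sign. Part of this closeness was fixed in advance. A change of the filter on dim probes leaves a single gene's difference as it was, as does the probe mean for a gene with 1 probe. Many counts were 0 both as reported and in the alternative. The comparisons of the mutant with unirradiated WT, and their alternatives, were chosen after seeing the data. Scaling to the spiked controls shifted the median of all genes by -0.63 for mutant against WT at 24 h, -0.38 and -0.27 for the mutant at 24 h and 3 h against unirradiated WT, 0.31 for WT at 24 h against 3 h, 0.23 for WT at 24 h against no UVB and -0.20 for mutant against WT at 3 h. With it the median of the 8 genes at 24 h between genotypes was -1.0 and 4 were lower in place of 0. It gave 2 higher for WT at 24 h against 3 h, in place of 1, 1 lower in the mutant at 24 h against 3 h, 1 lower for mutant against WT at 3 h and 3 lower for the mutant at 3 h against unirradiated WT, in place of 1. Plain subtraction and the authors' deposited table each gave 1 lower for WT at 24 h against 3 h, 1 higher and 1 lower in the mutant at 24 h against 3 h, 1 lower between genotypes at 3 h, 1 lower at 24 h and 3 lower for the mutant at 3 h against unirradiated WT. An offset of 16 gave 1 lower in the mutant at 24 h against 3 h and 3 lower for the mutant at 3 h against unirradiated WT. Without background correction 0 were higher for WT at 24 h against 3 h, in place of 1, and 1 was lower for the mutant at 24 h against unirradiated WT, in place of 2. Requiring both arrays above background gave the same 0 and 1. The mean over a gene's probes gave 0 lower for the mutant at 3 h and 1 for the mutant at 24 h against unirradiated WT. Zfp750 stayed nearest to Trp63 in 6 of the 6 alternatives in which this was computed, all with the brightest probe of each gene. The mean over a gene's probes was not among them. No paired analysis was possible because each group has 1 array, and slide or scan as a block was not run for the same reason. Signal near background limits Itga3, Itga6 and Lamb3.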

Other observations

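Markers of other cell types that back skin can hold also differed between arrays. Macrophage markers summed to 1863 and 2920 in Xpa mutant skin at 3 h and 24 h, against 1208, 1816 and 2704 in WT skin without UVB, at 3 h and at 24 h. Of 5 compared, 5 were called higher in the mutant at 24 h and 4 in WT at 24 h, each against unirradiated WT. The shares of all genes called higher were 3.28% and 2.45%. Adipocyte markers summed to 16048 and 12695 in Xpa mutant skin at 3 h and 24 h, against 15359, 12812 and 10211 in WT skin without UVB, at 3 h and at 24 h. Endothelial markers, of which Cdh5, Tek and Emcn were below background on all 5 arrays, summed to 860 and 1124 in Xpa mutant skin at 3 h and 24 h, against 955, 859 and 947 in WT skin without UVB, at 3 h and at 24 h. Of the 9 markers, 2 and 4 were above background on those mutant arrays, and 5, 1 and 3 on those WT arrays. These sums therefore rest in part on readings below background.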
